A study of Zea mays with 58 samples.

Results

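Of 196 genes that the authors' deposited network table lists as regulators, 96 had lower transcript levels in roots given nitrogen (N) than in roots kept without it (noN) on the average of 60, 90 and 120 min, and 82 of them at each of these times. They make up 48.98% of the regulators, in a count table of 46335 features. They were chosen by their own values: for each regulator, the difference between the group means of log2(CPM + 1), N minus noN, with CPM the counts over the library's total count, was averaged over 60, 90 and 120 min, and regulators at -0.4 or below were kept. Another 48 regulators were higher in N by at least as much and 52 lay between. All 96 passed the filter on low counts and were tested.

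Whole roots of 10-day-old seedlings of the maize inbred line B73 were studied. All seedlings, controls included, had lost the endosperm, the seed's own food store, and had spent 2 days in nitrate-free hydroponic medium. For N roots the next medium held KNO3 and NH4NO3, each at 20 mM and with a share of the nitrogen isotope-labelled, and for noN roots it held 20 mM KCl. The media therefore differ also in chloride and in total salt. Roots of both media were harvested at 6 early times (5, 10, 15, 20, 30 and 45 min) and 3 late ones (60, 90 and 120 min), and at time 0 in noN alone. Each group holds 3 libraries, with 4 for noN at 120 min. Each library is a biological replicate of 3 pooled seedlings per the labels' protocols.

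Plants take up nitrate and ammonium through transporters in the root and reduce nitrate before building it into amino acids. Nitrate also acts as a signal: in Arabidopsis, NIN-like proteins bind promoters of nitrate-responsive genes, and further transcription factors pass the response on. Transcription factors are often among the first genes to respond, and their mRNA levels can rise and fall within the hour. A regulatory network table of the kind used here gives each pair of a regulator and a target a weight. The table holds gene model IDs and no names, so the members' families and individual roles are not given here, and the root label could not be set against named marker genes. Since whole roots were used, fewer cells of a type and less RNA per cell cannot be told apart in any of the results.

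Libraries held 1978039 to 3790442 counts, with a median of 2617921. In the 21 noN libraries of 0 to 45 min the counts fell on longer genes than elsewhere. Their count-weighted mean log2 exon length was 11.01 to 11.11, against 10.92 to 10.997 in the 18 N libraries of 5 to 45 min, 10.98 to 10.99 in the 9 later N libraries and 10.97 to 10.999 in the 10 later noN libraries. Every N against noN comparison before 60 min crosses this gap, and no noN library of that period lies outside it, so the medium and the makeup cannot be told apart there. The members had a median exon length of 1661 bases, against 2062 in all genes tested. Over the members, 4 libraries stood more than 0.2 from their group mean in the median (log2): replicate 3 of the 5-min N group by 0.27, replicate 3 of the 15-min and of the 45-min N group by -0.24 each, and replicate 1 of the 90-min noN group by -0.22.

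The rule values ran from -2.50 to -0.40 with a median of -0.66. In 24 members the value was -1 or below, in 4 it was -2 or below, and in 44 it was above -0.6. The last members inside the threshold had -0.403, -0.404 and -0.408, and the first regulators outside it had -0.394, -0.388 and -0.386. The threshold thus cuts through a continuous range. The 60-min median difference was -0.46, with 83 members below 0. At 90 min the median was -0.87 and all 96 members were below 0, and at 120 min it was -0.78 with 95 below 0. In all, 52 had their most negative value at 90 min. For 94 members edgeR's quasi-likelihood test over these same libraries also called N lower (background 16.9% of genes tested), and in 19 members all 9 N libraries lay below all 10 noN libraries (background 1.21%). The rule used these libraries, so these counts describe the choice.

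Before 60 min, in libraries the rule did not use, the same regulators were mostly higher in N than in noN. Averaged over the 6 times from 5 to 45 min, 76 of 96 members were higher in N and 1 was lower (edgeR quasi-likelihood test, adjusted p of 0.05), where 29.7% of all 18872 genes tested were higher and 31.2% lower. The members' median effect was 0.56 on the log2 scale, against -0.02 over all genes tested, and 92 members had a positive value. In 12 members called higher the effect was at least 1, a doubling, and the share of all genes was not computed for this. The 19 members with no call lay between -0.22 and 1.05. When the trend on gene length was taken out of each library, the counts were again 76 higher and 1 lower. This early excess was no feature of the members alone: it held for 30 of the 48 regulators that were higher late, with 10 lower, and for 42 of the 52 between, with 8 lower.

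**Figure D1:**
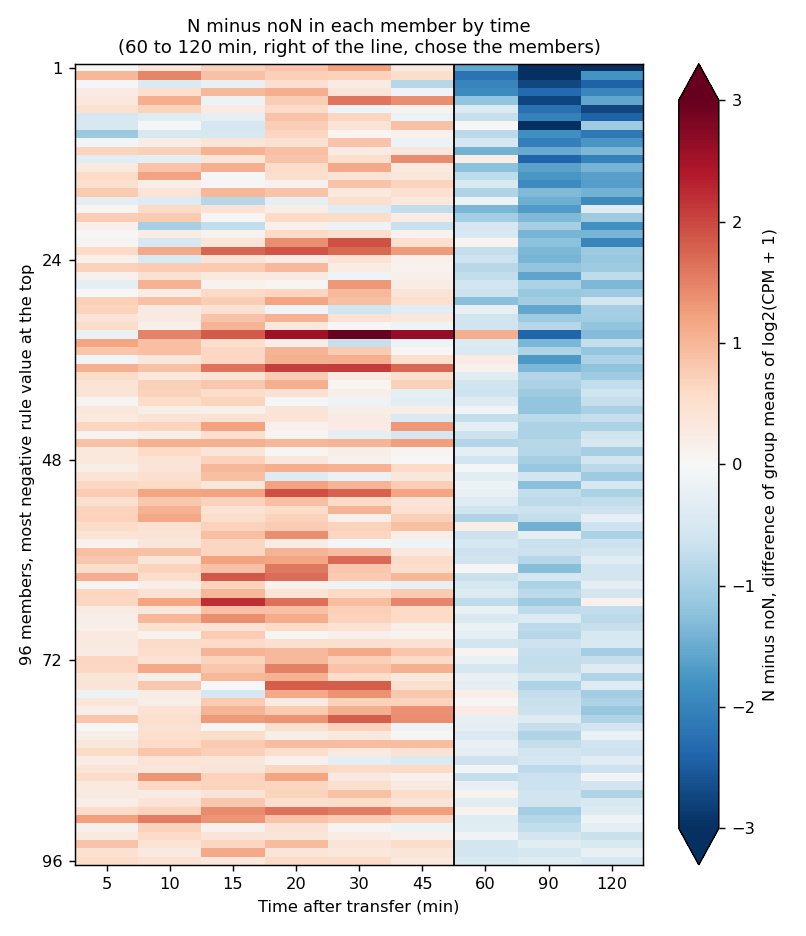
Differences between group means of log2(CPM + 1), N minus noN, with CPM on TMM-scaled totals, for the 96 members (rows, most negative rule value at the top) at 9 times in min (columns); red is higher in N, blue lower in N. Left of the line most rows are red, with 92 of 96 positive on average over 5 to 45 min; right of it, at the times that chose the members, most are blue.

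By single times, the members called higher in N numbered 7 at the first harvest of 5 min (background 2.63%), 27 after 10 min (background 7.56%) and 54 after 15 min (background 14.7%). They numbered 50 after 20 min (background 16.4%), 36 after 30 min (background 12.2%) and 27 after 45 min (background 13.4%). The count was thus greatest at 15 and 20 min, and at each time the members' share exceeded that of all genes. This was not particular to the members: the 52 regulators between had a greater share called higher at each of the 6 times. Their share was 34.6% after 5 min, against 7.29% of the members, and 69.2% after 20 min, against 52.1%. The 48 regulators higher late stayed below the members up to 20 min. They exceeded the members after 30 min, with 54.2% against 37.5%, and after 45 min, with 62.5% against 28.1%. Lower in N were 1 member at 10 min and 2 at 15 min, with backgrounds of 4.18% and 12.5%. No member was called lower by edgeR at 5, 20, 30 or 45 min, where 0.97%, 13.8%, 7.93% and 10.2% of all genes were. At an unadjusted p of 0.05 those lower counts were 0, 0, 0 and 4, DESeq2 called 0 at each of the 4 times, and limma on the quantile normalized values called 0, 0, 1 and 3. Of the 96, 77 were called higher at 1 or more of the 6 times and 1 at all 6. A call first came after 5 min in 7 members, after 10 min in 23, after 15 min in 33, after 20 min in 10, and later in 4. No share of all genes was computed for calls at any or all of the 6 times or for first calls. These counts therefore describe the members only.

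The counts at 5, 10 and 45 min depended on single libraries. At 5 min the count was 4 without replicate 2 of N, 3 without replicate 3 of N and 1 without replicate 2 of noN. At 10 min the members called in either direction numbered 15 without replicate 2 of N and 15 without replicate 3 of noN. At 45 min the count was 13 without replicate 2 of N and 15 without replicate 1 of noN. With the spread estimated from the groups of the comparison alone, the 5 min count was 2 and the 10 min count 15. For the mean over 5 to 45 min, leaving out any 1 of the 36 libraries gave 74 to 81 called members.

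The size of the early effect was set against the late value that chose the members. Across the 96 members Pearson's r between them was 0.18 and Spearman's rho 0.16, as a description over genes that share all libraries. The 76 members that were higher early had a median rule value of -0.58, and the 19 without an early call had a median of -1.05. A call depends on precision as well as on the effect. For example, 1 member with a mean of 1.45 CPM had an early effect of 1.05 with an SE of 0.50 and no call. The 4 lowest rule values stood, from the lowest up, beside early effects of 0.54, 0.99, -0.18 and 0.54. All but the -0.18 were called.

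**Figure D2:**
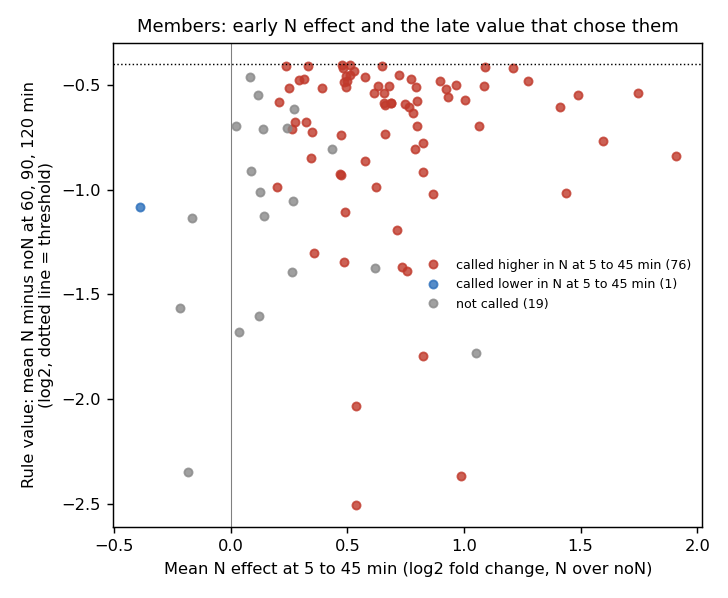
Each point is 1 of the 96 members: the mean N effect over 5 to 45 min (x axis, log2 fold change, N over noN) against the rule value (y axis, mean log2 difference, N minus noN, at 60 to 120 min; the dotted line marks -0.4). The 76 red points were called higher in N early, the 1 blue point lower, and the 19 grey points neither.

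With CPM on TMM-scaled totals, as for all levels from here on, the members' course was set against time 0. The members' median log2 level in N started from 0.23 (5 min), peaked with 0.57 (20 min), came back to 0.18 (45 min) and then lay below 0, with -0.06 (60 min), -0.37 (90 min) and -0.19 (120 min). In noN it was -0.09 (5 min), -0.18 (20 min) and -0.15 (45 min), and then lay above 0, with 0.31 (60 min), 0.65 (90 min) and 0.60 (120 min). The late difference thus stood on levels below time 0 in N and above time 0 in noN. Over all genes tested these medians stayed within 0.03 of 0 in both media. The late level above time 0 in noN was shared by the 52 regulators between the thresholds, with medians of 0.37 (60 min), 0.33 (90 min) and 0.34 (120 min). From the early to the late mean in noN their median change was 0.61. From the mean of 5 to 45 min to that of 60 to 120 min, 86 members went down in N and up in noN, with a median change of -0.56 in N and 0.73 in noN. The move in noN was the greater in 57 members. In N the highest group mean came by 45 min in 92 members, most often at 20 min (30 members), and in noN it came at 60 to 120 min in 83. These courses use the late libraries and carry no test. The rule chose members for low late levels in N relative to noN, so falls in N and rises in noN are partly built in. No share of all genes was computed for the joint move, the greater move or the times of the highest means. The noN step from 45 to 60 min, a median of 0.56, also spans the change in library makeup. Time 0 itself belongs to the early noN libraries, whose counts fell on longer genes. All N levels and the late noN levels set against time 0 therefore cross that gap, as does the early-to-late change in noN. The medium or time and the makeup cannot be told apart in them.

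**Figure D3:**
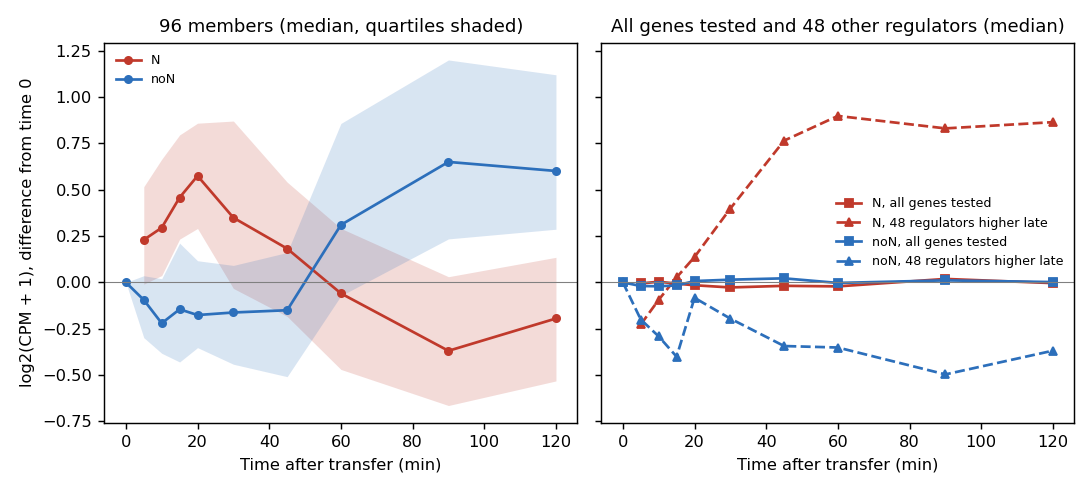
Median difference from time 0 in log2(CPM + 1) by time in min. The left panel shows the 96 members with quartiles shaded, N in red and noN in blue; the right panel shows all genes tested (squares) and the 48 regulators higher late (triangles). The members' lines cross between 45 and 60 min, while all genes tested stay near 0.

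Comparisons inside 1 medium do not set N libraries against early noN libraries. In N roots, 33 members changed over 5 to 45 min in a joint test (background 8.61%). Of the 48 regulators higher late 35 changed, and of the 52 between 15 did. At 45 against 5 min in N, 10 members were higher (background 4.46%) and 10 lower (background 2.54%), with log2 changes of 0.81 to 3.15 and of -2.82 to -0.57. The members' median was -0.10, 0.02 without replicate 3 of the 5-min group and -0.17 without its replicate 2. The called members thus moved both ways. So did the 52 regulators between, of which 8 rose and 7 fell, whereas 26 of the 48 regulators higher late rose and 2 fell.

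In noN roots, transfer was followed by changes in both directions. The makeup of these libraries also moved, with a weighted log2 exon length of 11.03 at time 0, 11.01 to 11.02 at 15 min, 11.05 to 11.07 at 20 min and 11.08 to 11.11 at 45 min. With the length trend taken out, the members called higher and lower were 8 and 13 for 15 min against time 0, 0 and 3 for 20 against 15 min, and 3 and 14 for 45 min against time 0. At 15 min against time 0, 8 members were higher (background 8.9%) and 14 lower (background 9.64%), by 0.90 to 3.61 and by -2.29 to -0.45. The share of members that rose was close to the background. The total was 14 without replicate 2 of time 0 and 14 without replicate 1 of 15 min. At 20 against 15 min none was called higher by edgeR (background 0.609%; 4 at an unadjusted p of 0.05, 0 by DESeq2, 1 by limma) and 3 were lower (background 2.05%), of which 2 had risen at 15 min. No call was left with the spread of the 2 groups alone, without replicate 3 of 15 min or without replicate 2 of 20 min, and 1 was left without replicate 1 of 15 min or without replicate 3 of 20 min. At 45 min against time 0, 3 members were higher (background 5.37%) and 16 lower (background 8.22%), by 0.73 to 1.33 and by -4.10 to -0.56. Such falls were not particular to the members. At 15 min 25% of the regulators higher late and 28.8% of those between were lower, against 14.6% of the members. At 45 min these shares were 27.1% and 26.9%, against 16.7%. These noN contrasts share libraries.

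The media were also compared by their change over time. Only a constant difference between N and noN libraries cancels there, and the gap in weighted log2 exon length was not constant: at 5 min the libraries had 10.97 to 10.98 in N, against 11.02 to 11.05 in noN, and at 45 min 10.97 to 10.99 in N, against 11.08 to 11.11 in noN. Between 5 and 15 min, edgeR called no member in either direction (background 0.0848% higher and 0.0053% lower; 12 higher and 2 lower at an unadjusted p of 0.05; 0 by DESeq2, which gave no adjusted p for 29 members, and 0 by limma). The median of the members was 0.34, 0.18 without replicate 1 of the 5-min or of the 15-min N group, and 1 member was called without replicate 3 of the 5-min N group. Between 5 and 45 min 1 member rose more in N than in noN (background 0.837%) and none less (background 0.0689%; 6 at an unadjusted p of 0.05; 0 by DESeq2 and by limma). The same counts came with the length trend taken out. The members' median was -0.05 and had no stable sign, with 0.14 without replicate 3 of the 5-min N group and -0.13 without its replicate 1. In that comparison 24 of the 48 regulators higher late were called higher and 0 lower. At 5 min itself the members' median N effect was 0.37, or 0.24 without replicate 3 of N, and 7 members passed the test.

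Zm00001d028752 is the member that rose more in N between 5 and 45 min, and it had the largest early effect called. It lies on AGPv4 chromosome 1 from 45537884 to 45539961 on the plus strand, with an exon length of 1806 bases. At 5 min its libraries held 12.8, 17.6 and 12.9 CPM in N, against 16.5, 19.1 and 14.6 in noN. Those of 10 min held 57.1, 100.3 and 125.5 CPM in N, against 29.2, 33.2 and 32.3 in noN. The groups overlapped at first and were apart 5 min later. By 30 min the libraries held 312, 286.1 and 235.8 CPM in N, against 41.3, 22.7 and 27.2 in noN. On the log2 scale N then exceeded noN by 3.19 (SE 0.39, edgeR adjusted p = 2.32e-08). The mean over 5 to 45 min was 1.91 (SE 0.16, edgeR adjusted p = 5.81e-14). It also rose in noN by 15 min, with a log2 change of 1.63 from time 0 (SE 0.41, edgeR adjusted p = 0.00487). At 60 min its mean was still higher in N, with 54.9 ± 30.9 CPM in N and 23.01 ± 3.98 in noN (SD, n = 3 each). At 90 min it had 16.7 ± 0.723 CPM in N and 111.6 ± 73.9 in noN, where replicate 1 stood at 37.4 and the others at 185.3 and 112, so the reversal after 60 min is what placed it among the members.

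Zm00001d020614 had the most negative rule value, -2.50. It lies on chromosome 7 from 125133740 to 125135827 on the minus strand, with an exon length of 1546 bases. At 120 min it had 16.2, 10.9 and 11.4 CPM in N roots, against 156.2, 186.1, 102.5 and 43.7 in noN roots. The groups did not overlap, and noN varied more than 4-fold among its replicates. In noN its mean was 8.66 CPM before transfer (time 0) and 18.3 after 45 min, and from there it climbed to 40.7 (60 min), 72 (90 min) and 122 (120 min). In N it reached 34.2, 54.6 and 42.3 CPM at 30 min, against 12.8, 19.8 and 22.4 in noN. At that time N was the higher, by 1.25 (SE 0.41, edgeR adjusted p = 0.025), and over 5 to 45 min by 0.54 (SE 0.20, edgeR adjusted p = 0.0179). Inside N it rose by 2.05 at 45 against 5 min (SE 0.51, edgeR adjusted p = 0.00625). In noN its mean also went up, from 5.42 CPM at 5 min to 18.3 at 45 min. The difference between the changes in N and noN was 0.28 and not called (SE 0.73, edgeR adjusted p = 0.933).

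Zm00001d024543 was the 1 member called lower in N in the mean over 5 to 45 min; a second member was called lower at 15 min alone. It lies on chromosome 10 from 77529347 to 77533684 on the plus strand, with an exon length of 3094 bases, longer than most members. At 10 min it had 3.52, 7.44 and 6.25 CPM in N roots, against 9.09, 15.0 and 12.4 in noN roots. The groups did not overlap, and the effect was -1.07 (SE 0.31, edgeR adjusted p = 0.0182). Over 5 to 45 min it was -0.39 (SE 0.12, edgeR adjusted p = 0.00379), and -0.33 with the length trend taken out. At 20 min the groups overlapped and the difference was 0.20 and not called (edgeR adjusted p = 0.6). At 120 min it had 8.91 ± 4.56 CPM in N (SD, n = 3) and 33.1 ± 8.84 in noN (SD, n = 4).

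Zm00001d021205 rose most in noN at 15 min against time 0. It lies on chromosome 7 from 146027044 to 146027784 on the minus strand, a single exon part of 741 bases. It had 12, 30 and 26 counts in the 15 min libraries, against 4, 0 and 0 at time 0, and 6, 7 and 10 counts at 20 min. The fitted log2 change was 3.61 (SE 0.88, edgeR adjusted p = 0.00351), and it ran from 3.02 to 7.31 as each library was left out, since the level at time 0 rests on 4 counts. N roots had 15, 11 and 8 counts at 15 min, against 12, 30 and 26 in noN, and the N effect there was not called (log2 -0.64, SE 0.63, edgeR adjusted p = 0.475). At 90 min it had 0, 5 and 1 counts in N, against 12, 89 and 93 in noN. Replicate 1 of noN stood apart from the others there. At 60 min the counts were 0, 2 and 0 in N, against 2, 0 and 0 in noN, and at 120 min they were 1, 4 and 0 in N, against 8, 4, 4 and 5 in noN. The late difference was therefore greatest at 90 min and near 0 at 60 min.

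**Figure D4:**
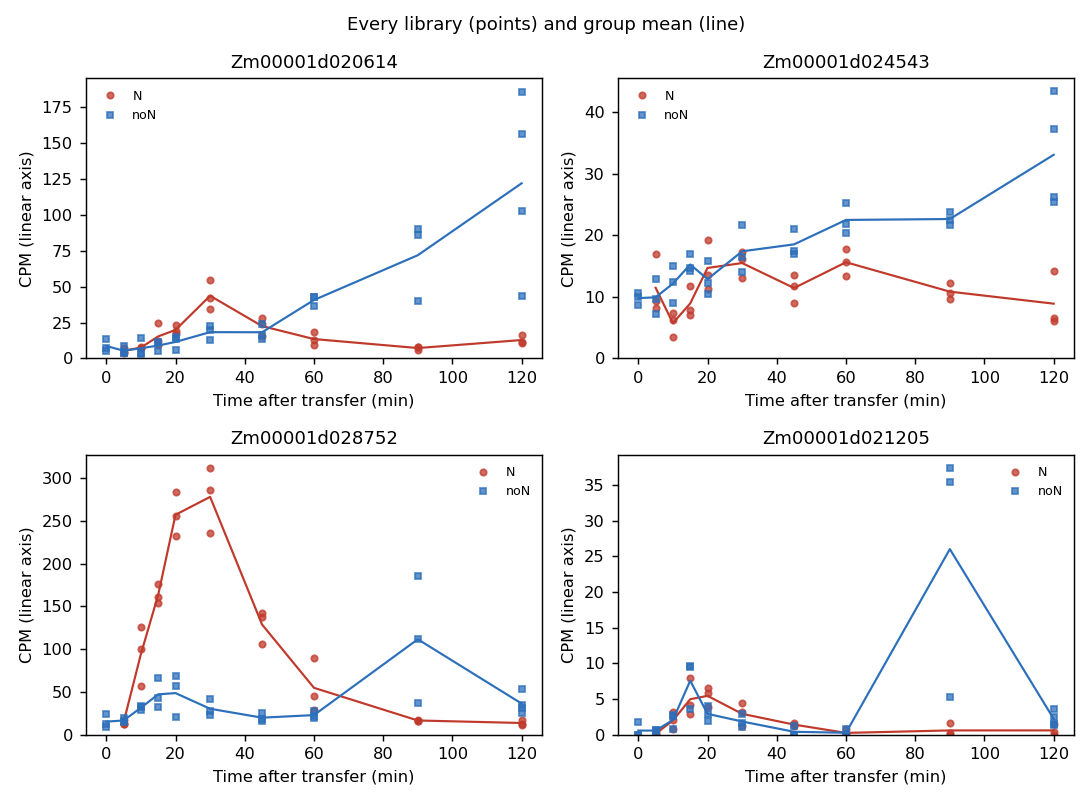
CPM by time in min (linear axes from 0) for the 4 members described singly, with every library as a point and group means as lines, N in red and noN in blue. Zm00001d028752 peaks in N at 278 CPM at 30 min and Zm00001d020614 climbs in noN to 122 CPM at 120 min.

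In the authors' network, where the weight is a score of at least 0 with no stated unit, the members carried 49.1% of all weight, close to their 48.98% of regulators. The summed weight over a regulator's targets had a median of 410 in the members, 411 in the regulators higher late and 545 in those between. At the top of the ranking, 7 of the first 10 and 13 of the first 20 regulators were members, beside their 48.98% of all regulators. These are few regulators, and a difference from that share was not tested. A member was the regulator with the greatest weight for 1399 of 2294 targets, 60.99%, and a single member led 170, while 40 members led none. The median number of targets led was 1 in the members, 0 in the regulators higher late and 1 in those between. The share of targets led by a member was 60.9% of 731 targets that were themselves at -0.4 or below by the same late difference. It was 62.01% of 608 targets at 0.4 or above and 60.4% of the 955 between. The members' lead was therefore much the same whichever way a target moved late.

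Summed weight was lower where the transcript level was higher. Across the members Spearman's rho of summed weight with mean CPM per kb of exon was -0.70, and -0.76 with CPM not divided by length, which for reads taken near transcript ends is the more direct scale. Among the 100 other regulators rho was -0.62 and -0.69 on these scales. With the rule value it was -0.10 in the members. The 48 members with the lower levels per kb had a median summed weight of 697, against 232 in the 48 with the higher levels. Zm00001d024543 ranked 5 of 196 with 1251, Zm00001d021205 ranked 47, Zm00001d020614 ranked 90 and Zm00001d028752, which responded most in N before 60 min, ranked 185 with 40.2. Weights from member to member had a median of 0.035, against 0.036 from members to other regulators and 0.040 over all pairs, and 5 of 9120 such pairs reached 5. These are descriptions over regulators that share 1 table and the same libraries.

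**Figure D5:**
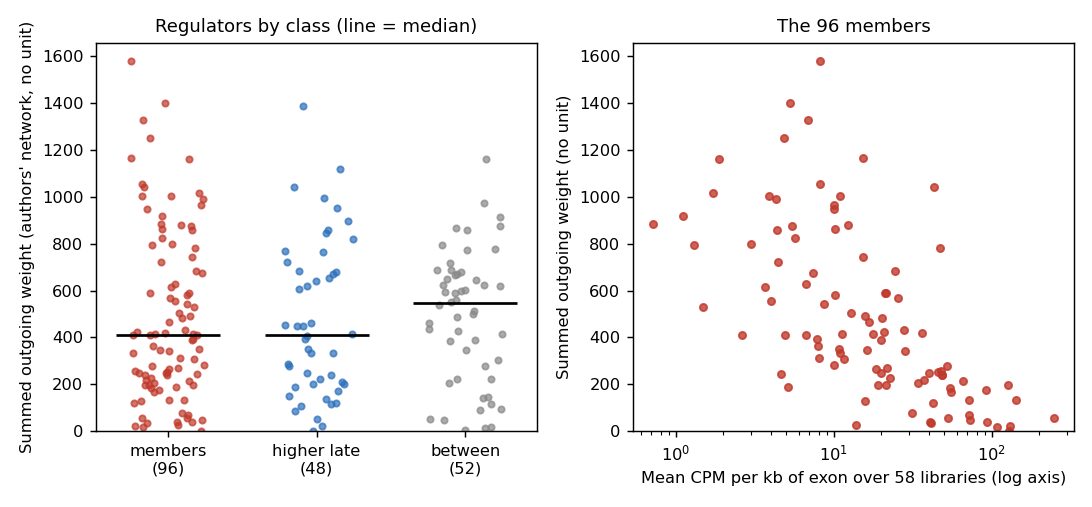
Left, summed outgoing weight in the authors' network (no unit) for the 96 members, the 48 regulators higher late and the 52 between, with the median as a line. Right, the same weight for the 96 members against their mean CPM per kb of exon over 58 libraries (log axis); Spearman's rho is -0.70.

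The members were spread over all 10 chromosomes, with 17 on chromosome 1, 13 on chromosome 2, 12 on chromosome 5 and 3 on chromosome 10, and 2 lay on unplaced contigs. On the plus strand were 57 and on the minus strand 39. Within 100 kb of each other lay 2 pairs, separated by 74963 bases on chromosome 1 and by 15539 bases on chromosome 8. The members' mean level per kb of exon ran from 0.719 to 249 CPM with a median of 16.0, against 8.85 over all genes tested.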

How the data were processed

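Per the labels' protocols, libraries were made with a 3' mRNA kit with molecular identifiers and read from 1 end over 75 bases. The submitters' processing notes name STAR 2.7.6a, featureCounts 2.0.1, fastp 0.21.0 and UMI-tools 1.1.1. The counts per gene that the authors deposited refer to AGPv4 annotation release 37, per the file headers. The authors' deposited quantile normalized values, a score, cover 18616 genes in 57 libraries, and the weight in the deposited network is a score; how it was made the sources used here do not give.

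All counts were fitted in edgeR 4.0.16 (R 4.3.3) with TMM scaling, 1 mean for each of 19 groups and 39 residual degrees of freedom, after filterByExpr (minimum count 10, minimum total 15; 18872 genes, 99.7% of counts). The model was tested on simulated data. P-values were adjusted by Benjamini-Hochberg over all genes tested, and called at 0.05. They measure the spread between these replicates; intervals for single counts cover counting error only and none is given. The rule divides counts by each library's total count; all other CPM, courses and figures use TMM-scaled totals.

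The members, the tests and the rule for named IDs were chosen with earlier results of these data known. That rule took, as IDs that fell, the most negative rule value and the most negative early effect called, and, as IDs that rose, the most positive early effect called and the largest rise in noN at 15 min called. Of the regulators, 0 matched a name in the reference table, which is of another assembly, so gene family and pathway lists had 0 members and no sequence is shown. Alternatives were DESeq2 1.42.0, its size factors, limma 3.58.1 on the quantile normalized values, no filter, removal of the length trend, a replicate block, fits of the compared groups alone, and leaving out each library.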

Additional observations from a re-analysis of the deposited data

Results flagged for a closer look

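Zm00001d028752 was the 1 member whose change between 5 and 45 min differed between the media by a test of the difference itself. N roots had 129 ± 19.5 CPM at 45 min, against 14.4 ± 2.74 at the first harvest, 5 min after transfer. The noN roots had 20.0 ± 4.86 CPM at 45 min, against 16.7 ± 2.25 at the first harvest (SD, n = 3 in every group). The log2 change was greater in N by 2.89, with an SE of 0.59 (edgeR adjusted p = 0.0036), and it was called by DESeq2 and by limma as well. Of the 96 members it was the 1 called, where 0.837% of all genes tested were, and it was called also with the length trend removed. The N and noN libraries differ in makeup by more at 45 min than at 5 min, as described above.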

How the results depend on the processing

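The counts of called members stayed within 1.5 times their main value under DESeq2, its size factors, limma on the quantile normalized values, no filter, the length trend removed and the replicate block, in all 14 comparisons. With the spread of the compared groups alone, 2 members were called at 5 min, 15 at 10 min and 0 at 20 against 15 min in noN. Leaving out 1 library at a time gave 1 to 6 called members at 5 min, 15 to 32 at 10 min, 13 to 26 at 45 min, 14 to 19 at 15 min against time 0 in noN, 0 to 4 at 20 against 15 min in noN, and 0 to 1 for the change from 5 to 15 min; the cause was not tested, and each such fit has fewer samples. Replicate numbers did not pair the samples: same-numbered libraries had a median correlation of deviations of 0.008, and 126 of 513 pairs were over 0.1. With a replicate block 77 members were called over 5 to 45 min, as without it. The rule gave 52 members at a threshold of -0.6, 110 at -0.3, 97 with a pseudocount of 0.5, 102 with TMM-scaled totals and 90 to 99 as single libraries were left out. For Zm00001d021205 the mean early effect of 0.12 reversed to -0.0484 with the length trend removed and to -0.21 without replicate 2 of N at 5 min, and was called in neither; its range over single libraries left out was -0.21 to 0.66. At this depth such low counts limit what can be said of it.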

Other observations

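Regulators are also listed as targets in the authors' network. Across the members, the weight summed over all regulators acting on them had a Spearman's rho of 0.86 with mean CPM per kb of exon, the opposite sign to that of their outgoing weight. Incoming and outgoing sums had a rho of -0.78. All 196 regulators have a pair with themselves, with weights of at most 0.788, while the largest weight in the table, 42.5, belongs to a member. These are values over genes that share all libraries.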
